A study of Arabidopsis thaliana with 12 samples.

Results

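The genes described here are 10 auxin response factors (ARFs) of Arabidopsis thaliana, taken as a fixed list of gene identifiers: ARF1 (AT1G59750), ARF2 (AT5G62000), ARF3 (AT2G33860), ARF4 (AT5G60450), ARF5 (AT1G19850), ARF6 (AT1G30330), ARF7 (AT5G20730), ARF8 (AT5G37020), ARF16 (AT4G30080) and ARF19 (AT1G19220). All 10 had a row in both deposited tables, which hold 27655 genes, 27445 of them nuclear. The list names genes and uses no measured value, although it was drawn up with earlier results of these data known. Of the 10, 5 are counted as activators (ARF5, ARF6, ARF7, ARF8 and ARF19) and 5 as repressors (ARF1, ARF2, ARF3, ARF4 and ARF16), after the class each protein is given in textbooks.

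ARFs are transcription factors that bind auxin response elements in promoters and switch the genes beside them on or off. At low auxin, Aux/IAA proteins sit on the activator ARFs and recruit TOPLESS co-repressors, and when auxin binds the TIR1/AFB receptors the Aux/IAA proteins are degraded and the activators are freed. The activators carry a glutamine-rich middle region, whereas repressor ARFs mostly lack one. Several ARF mRNAs are also cut by small RNAs, and several carry short upstream open reading frames (uORFs) ahead of the main coding sequence, at which a scanning ribosome can start and leave before it reaches the main start codon.

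The samples were Col-0 wild-type seedlings, 7 days old, grown in liquid medium under 16 hours of light per day, to which the solvent DMSO had been added at 0.1% of the medium volume. No auxin treatment, mutant or transgene was among them, and whole seedlings were used. Ribosome profiling (Ribo-seq) sequences the stretches of mRNA that ribosomes shield from nuclease, called footprints. Matched RNA-seq, after removal of rRNA, measures the RNA of the same genes. Each assay had 6 libraries, harvested 20 or 60 minutes after DMSO was added, and the authors deposited them pooled, as a single value for each gene in Ribo-seq and another in RNA-seq. How much replicates differ is therefore unknown, and no test between conditions was possible. Every interval below is built from 95% limits for counting error alone. Intervals of ratios combine the opposite limits of both counts, and intervals of differences the opposite ends of both ratio intervals. Both kinds are therefore wider than 95% intervals.

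Expected counts summed to 299584069 in Ribo-seq and 51390094 in RNA-seq, so the RNA-seq count sets most of the width of each interval. The descriptions of the Ribo-seq samples name root, while their titles and source name seedlings. Leaf genes were abundant among the footprints, with RBCS1A at 9676.3 TPM in Ribo-seq and 7469.75 TPM in RNA-seq, and the root genes EXPA7, COBL9, PHT1;1 and SHR lay between 4.28 and 67.42 TPM in Ribo-seq and between 5.67 and 69.23 TPM in RNA-seq. The flower genes AP3, PI and AG were at 0.29 to 0.48 TPM in Ribo-seq and 0.03 to 0.37 TPM in RNA-seq. Nuclear genes held 95.2% of the Ribo-seq TPM but 69.8% of the RNA-seq TPM, so the ratios below are read against the median of all nuclear genes and not against 0.

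All 10 ARF mRNAs carried fewer footprints for their RNA than the median nuclear gene. TPM (a transcript abundance that sums to the same total in every table) scales counts by coding length and library total, so that genes can be compared. The ratio used here divides Ribo-seq TPM by RNA-seq TPM, after adding 0.1 to both, on a log2 scale. It was computed for the 21422 nuclear genes with an RNA-seq TPM over 0.1. All 10 ARFs lay under the nuclear median of 0.12, where 50% of nuclear genes lie by definition, and all 10 lay under 0, against 43.6% of nuclear genes. ARF4, ARF8 and ARF6 lay under -1, which is 3 of 10 members against 10.1% of nuclear genes, and 0 of 10 lay over 1, against 8.44%. This count moves with the scaling: with whole in place of effective lengths 7 of 10 lay under -1, against 14.2% of nuclear genes, and with nuclear genes alone in the total 8 of 10, against 19.8%. The median ratio of the 10 was -0.76. ARF coding sequences are long, and long genes had low ratios in these tables, with a median of -0.19 over the 3721 nuclear genes in the ARF range of coding length. The 1880 nuclear genes within the span of coding length and RNA-seq TPM of the ARFs had a median of -0.11, and 9 of the 10 ARFs lay under that value, all but ARF16.

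**Figure D1:**
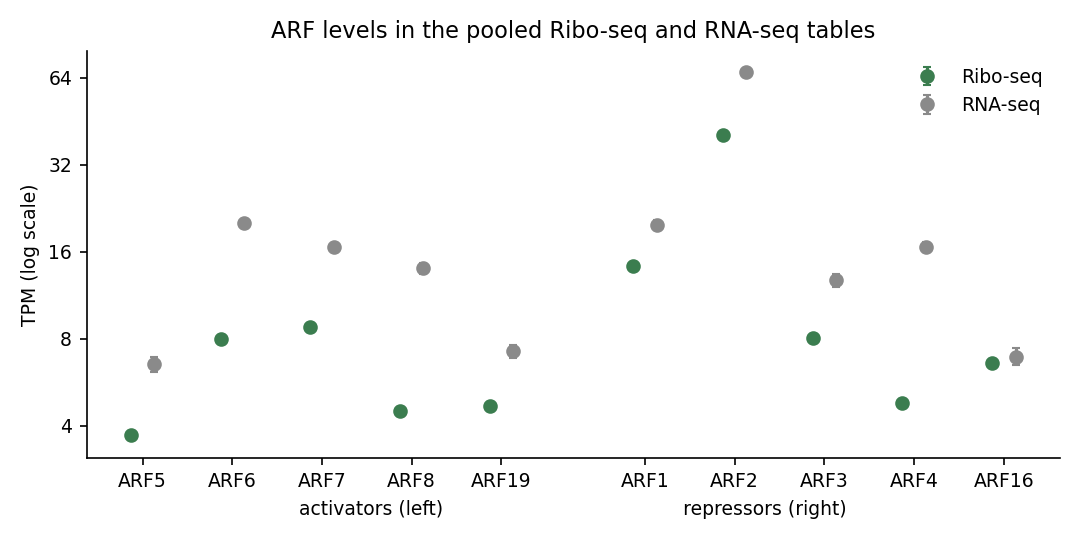
Level of each ARF in Ribo-seq (green) and RNA-seq (grey), in TPM on a log axis, activators to the left of repressors. Points are the pooled values of 6 libraries and bars are 95% counting intervals, mostly smaller than the point. ARF2 stands above all others in both assays, and every Ribo-seq point lies under the RNA-seq point of its gene.

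ARF5 (AT1G19850), also called MONOPTEROS, is required to form the embryonic root and the vascular strands. In whole seedlings, fewer cells that express a gene and less RNA per cell cannot be told apart. ARF5 had the lowest level of the 10 in both assays, 3.72 TPM in Ribo-seq (3362 footprints) and 6.55 TPM in RNA-seq (1088 counts). Its ratio was -0.80 (-0.93 to -0.67). The gene lies at chr1:6886669-6891404 on the plus strand of TAIR10.1.

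ARF7 (NPH4), at chr5:7016445-7022179 on the minus strand, acts in hypocotyl bending and in the start of lateral roots, the second role shared with its close relative ARF19 at chr1:6627683-6633133 on the minus strand. ARF7 (AT5G20730) had 8.77 TPM in Ribo-seq (10296 footprints) and 16.65 TPM in RNA-seq (3662 counts). ARF19 had 4.70 TPM in Ribo-seq (5150 footprints) and 7.24 TPM in RNA-seq (1479 counts). ARF7 was thus the more abundant of the pair in both assays, but ARF19 had the higher ratio, -0.61 (-0.72 to -0.50) against -0.92 (-0.99 to -0.84) for ARF7. The difference, ARF19 minus ARF7, was 0.30 (0.12 to 0.49).

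ARF6 (chr1:10685822-10690988, minus strand) and ARF8 (chr5:14629453-14634454, plus strand) act together in the maturation of flowers and in the formation of adventitious roots. ARF8 (AT5G37020) had 4.52 TPM in Ribo-seq (3685 footprints) and 14.03 TPM in RNA-seq (2090 counts), and ARF6 had 8.00 TPM in Ribo-seq (7537 footprints) and 20.10 TPM in RNA-seq (3500 counts). These were the lowest ratios among the activators, -1.61 (-1.72 to -1.51) for ARF8 and -1.32 (-1.40 to -1.24) for ARF6. ARF8 lay under ARF6 by more than counting error, with a difference of -0.29 (-0.48 to -0.11).

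Among the repressors, ARF2 restrains organ growth and promotes leaf senescence, partly together with ARF1. ARF2 (AT5G62000; chr5:24910191-24915395, plus strand) was the most abundant of the 10, with 40.54 TPM in Ribo-seq (35037 footprints) and 67.27 TPM in RNA-seq (10702 counts), or 39.0% of the summed Ribo-seq TPM of the 10 ARFs and 35.8% of their RNA-seq TPM. ARF1 (chr1:21979289-21984433, plus strand) had 14.29 TPM in Ribo-seq (9514 footprints) and 19.86 TPM in RNA-seq (2385 counts). Although ARF2 was far more abundant, its ratio of -0.73 (-0.77 to -0.69) lay under that of ARF1, -0.47 (-0.56 to -0.39).

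ARF3 (ETTIN; chr2:14325206-14328978, minus strand) and ARF4 (chr5:24308255-24312784, minus strand) together specify the lower side of leaves, and ARF3 patterns the gynoecium. ARF4 (AT5G60450) had 4.82 TPM in Ribo-seq (3767 footprints) and 16.65 TPM in RNA-seq (2405 counts). ARF3 had 8.06 TPM in Ribo-seq (4910 footprints) and 12.78 TPM in RNA-seq (1393 counts). The order of the pair thus turned round between assays, with ARF4 under ARF3 in Ribo-seq and above it in RNA-seq. ARF4 had the lowest ratio of all 10, -1.77 (-1.87 to -1.66), and ARF3 one of -0.66 (-0.77 to -0.54), a difference of -1.11 (-1.33 to -0.89).

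ARF16 (AT4G30080), at chr4:14703065-14706354 on the minus strand, acts in the root cap. It had 6.62 TPM in Ribo-seq (4452 footprints) and 6.95 TPM in RNA-seq (844 counts). Its ratio of -0.07 (-0.21 to 0.07) was the highest of the 10. The ratios of all 10 members fell with whole in place of effective lengths and with nuclear genes alone in the total. That of ARF16 was then -0.42 and -0.51, and the nuclear median -0.056 and -0.32.

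By ratio, the order ran ARF16, ARF1, ARF19, ARF3, ARF2, ARF5, ARF7, ARF6, ARF8 and ARF4, from high to low. Counting intervals of neighbours overlapped from ARF1 down to ARF7 and again between ARF8 and ARF4. They were apart between ARF16 and ARF1, between ARF7 and ARF6 and between ARF6 and ARF8. Among nuclear genes, ARF16 stood at percentile 40.3, ARF4 at percentile 3.08 and the other members between 3.87 and 23.3. By Ribo-seq TPM the order ran ARF2, ARF1, ARF7, ARF3, ARF6, ARF16, ARF4, ARF19, ARF8 and ARF5, with overlapping intervals between ARF3 and ARF6 and among ARF4, ARF19 and ARF8. By RNA-seq TPM it ran ARF2, ARF6, ARF1, ARF4, ARF7, ARF8, ARF3, ARF19, ARF16 and ARF5, with ARF6 and ARF1, ARF4 and ARF7, ARF8 and ARF3, and the lowest 3 overlapping their neighbours.

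**Figure D2:**
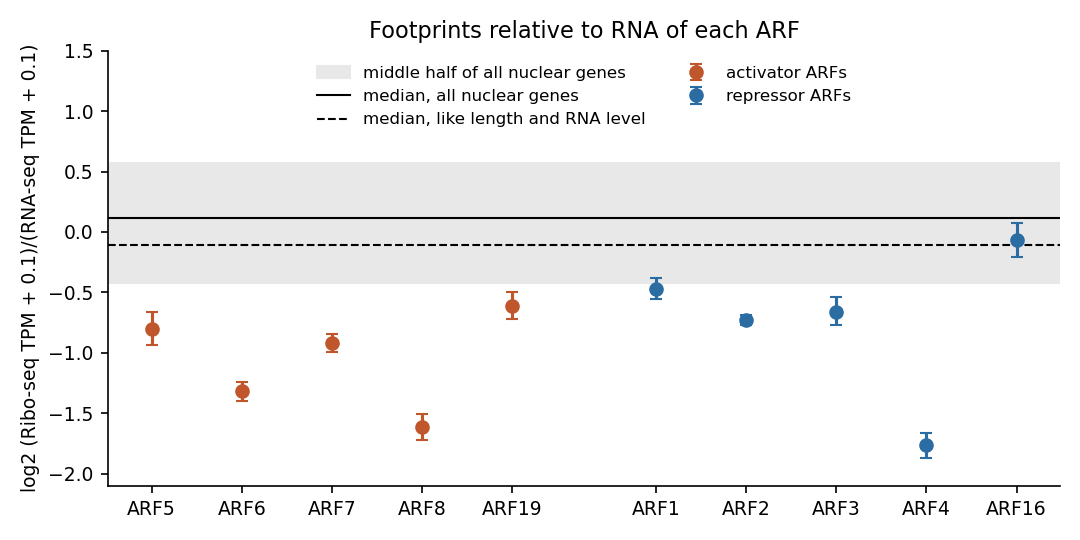
Log2 ratio of Ribo-seq over RNA-seq (TPM, 0.1 added to both) of the 5 activators (orange) and 5 repressors (blue). Bars are counting intervals that combine the 95% limits of both counts. The solid line is the median of all nuclear genes (0.12), the grey band their interquartile range, and the dashed line the median of nuclear genes of like length and RNA level (-0.11). ARF4, ARF8 and ARF6 lie lowest and ARF16 highest.

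Activators had a median ratio of -0.92 and repressors one of -0.66, a difference of -0.26. The classes overlapped widely, from -1.61 to -0.61 in the activators and from -1.77 to -0.07 in the repressors, and the lowest and the highest value of the 10 both belonged to repressors. Median levels of activators and repressors were 4.70 and 8.06 TPM in Ribo-seq, and 14.03 and 16.65 TPM in RNA-seq. Their summed levels lay further apart. The activators summed to 29.71 TPM in Ribo-seq and the repressors to 74.33 TPM, while in RNA-seq the activators summed to 64.57 TPM and the repressors to 123.51 TPM. Activators thus held 28.6% of the footprints per length of the 10 genes and 34.3% of their RNA. Much of this was ARF2: without it the repressors summed to 33.79 TPM in Ribo-seq, still above the activators, and to 56.24 TPM in RNA-seq, below them.

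The classes differed in the glutamine content of their coding sequences. Glutamine codons (CAA or CAG) made up 15.3% of the codons of ARF7, 12.5% of ARF19, 10.4% of ARF6, 8.75% of ARF8 and 6.98% of ARF5. In the repressors they made up 4.77% in ARF2, 4.66% in ARF1, 3.95% in ARF3, 3.81% in ARF4 and 2.24% in ARF16. The median over 25330 nuclear coding sequences was 3.19%, and the classes did not overlap. The glutamine-rich region is part of how activators were first recognised, so this describes the classes and is no independent support for them. The densest stretch of 30 codons shows the contrast. It held 24 glutamine codons in ARF19 and in ARF6, 23 in ARF7, 13 in ARF8 and 7 in ARF5, against 3 to 6 in the repressors. The stretches of ARF19 (chr1:6630259-6630348, minus strand), ARF7 (chr5:7018621-7018710, minus strand), ARF6 (chr1:10687542-10687631, minus strand) and, for contrast, ARF16 (chr4:14703825-14703914, minus strand) are printed in coding sense from the RefSeq TAIR10.1 genome, with glutamine codons in capitals.
ARF19: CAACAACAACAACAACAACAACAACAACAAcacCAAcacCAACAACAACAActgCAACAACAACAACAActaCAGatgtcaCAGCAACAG
ARF7: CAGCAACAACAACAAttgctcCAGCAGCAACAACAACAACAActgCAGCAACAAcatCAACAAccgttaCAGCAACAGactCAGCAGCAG
ARF6: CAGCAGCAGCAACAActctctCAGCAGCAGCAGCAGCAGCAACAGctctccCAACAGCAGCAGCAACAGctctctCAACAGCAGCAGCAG
ARF16: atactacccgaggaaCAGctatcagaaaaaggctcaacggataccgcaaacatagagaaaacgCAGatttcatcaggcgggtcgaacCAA
Footprints from repeats shared between genes cannot be placed in one gene. Of the 28-base stretches of each coding sequence, 0.309% in ARF19 and 0% in the other 9 members also occurred in another coding gene.

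Upstream ATGs were common in the leaders, the untranslated stretches ahead of the main start codon. For every gene they were counted in the reference transcript with the longest coding sequence and, where several tied, the longest leader. In it, 8 of the 10 ARFs had at least 1 upstream ATG, against 61.8% of nuclear genes with a leader and a ratio. Of the 10, 50% had 5 or more, against 12.7% of the other nuclear genes. This share depends on the transcript: with the shortest leader, ARF2 had 2 upstream ATGs, ARF5 had 3 and ARF8 had 0. Leaders were long, with a median of 603 nucleotides against 184.5 in the other genes. Other genes in the ARF range of length and RNA level came closer, with an upstream ATG in 71.4%, 5 or more in 18.0% and a median leader of 249 nucleotides. ARF5 and ARF8 had 10 upstream ATGs each, ARF2 had 9, ARF6 had 7, ARF4 had 5, ARF19 had 3, and ARF3 and ARF7 had 2 each. ARF1 and ARF16 had 0, and their leaders of 311 and 197 nucleotides were the shortest of the 10. One of the ARF3 uORFs was the longest among the members, at 92 codons.

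The 2 ARFs with no upstream ATG had the highest ratios of the 10, and the 3 with the lowest ratios, ARF4, ARF8 and ARF6, had 5, 10 and 7. Outside the 10 this did not hold: ARF17, with a leader of 200 nucleotides and 0 upstream ATGs, had a ratio of -0.93, under 5 of the 8 members with upstream ATGs. The median of members with an upstream ATG minus that of members without was -0.59, or -0.33 when the transcript with the shortest leader was taken for each gene. In the transcripts counted, the order was not that of the number of upstream ATGs, since ARF2 and ARF5, with 9 and 10, lay at -0.73 and -0.80. Both genes also have transcripts with fewer, down to 2 in ARF2 and 3 in ARF5. In RNA-seq the ARF5 form with 10 made up only 27.7%. The coefficients that follow rest on the same counted transcripts. Over the 10 members, Spearman's rho of the ratio was -0.66 with the number of upstream ATGs and -0.77 with leader length, and these measures went together (rho 0.85). The points share both tables and the same annotation, and the coefficients are given as descriptions. In the other nuclear genes the median ratio was 0.29 with no upstream ATG (7792 genes), 0.17 with 1 (4273 genes), 0.0030 with 2 to 4 (5736 genes) and -0.23 with 5 or more (2597 genes). Each of the 10 ARFs lay under the median of the genes with as many upstream ATGs. The same held against other genes in the ARF range of length and RNA level, where the medians were 0.17, -0.09, -0.28 and -0.50. The tables count coding sequences alone, so footprints on the uORFs themselves were not analysed here, and the part of uORFs in the low ratios was not tested.

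**Figure D3:**
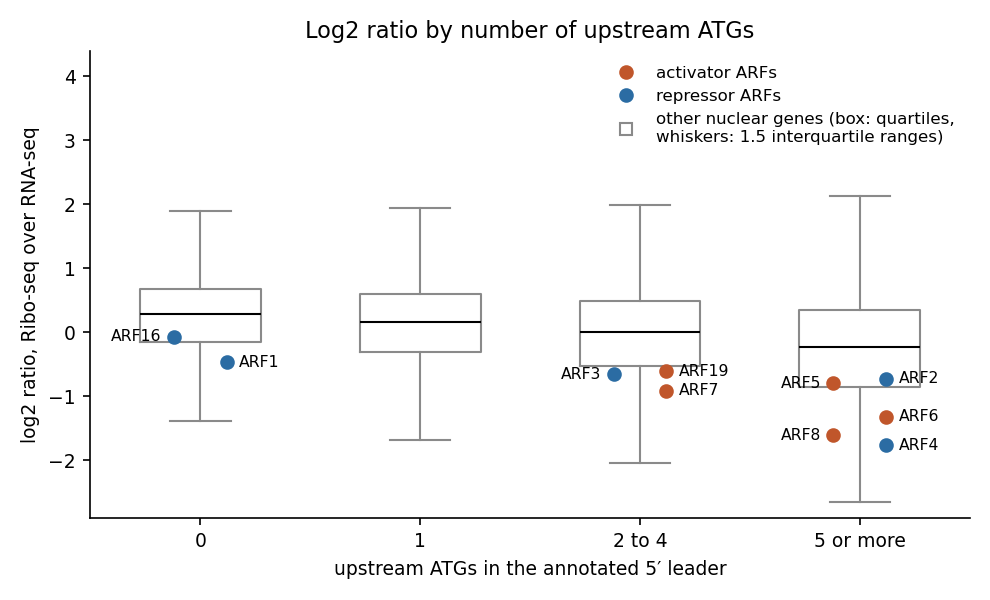
Log2 ratio of Ribo-seq over RNA-seq by the number of upstream ATGs in the annotated leader, for other nuclear genes (boxes, quartiles with whiskers to 1.5 interquartile ranges, genes beyond them not drawn) and the ARFs (orange activators, blue repressors). Box medians descend from 0.29 with no upstream ATG to -0.23 with 5 or more, and each ARF lies under the median of its box.

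Alternative transcripts complicate this count. ARF2 has 5 annotated transcripts whose leaders hold between 2 and 9 upstream ATGs. By the gene length in each table, the one with the shorter coding sequence and 2 upstream ATGs made up 3.28% in Ribo-seq and 0.556% in RNA-seq, while the other 4 have coding sequences of one length and were not separated. For ARF8 the longest coding form, with 10 upstream ATGs, made up at least 99.98% in Ribo-seq and 92.8% in RNA-seq. For ARF5 the gene length in each table gives the mix of 2 coding forms. The form with the 684-nucleotide leader and 10 upstream ATGs made up 52.8% in Ribo-seq and 27.7% in RNA-seq, and the rest was the form with a leader of 183 nucleotides and 3 upstream ATGs. For ARF4 the longer coding form made up 56.4% in Ribo-seq and 90.5% in RNA-seq, and both forms have the same leader. For ARF3 the longer form made up 100% in both assays. These shares are estimates by RSEM from short reads and carry no interval.

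Small-RNA sites were looked for because 3 systems are known to act on ARF mRNAs: miR160 on ARF10, ARF16 and ARF17, miR167 on ARF6 and ARF8, and the trans-acting siRNAs of the TAS3 locus (tasiR-ARFs) on ARF2, ARF3 and ARF4. Mature miRNAs were read from the RefSeq TAIR10.1 annotation. The tasiR-ARFs were derived by counting 21-base steps from the miR390 site of TAS3, so their ends may be off by a base. The 7th and 8th steps are nearly alike and share bases 2 to 8, the part printed in capitals.
ath-miR160a-5p: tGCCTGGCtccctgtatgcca
ath-miR167a-5p: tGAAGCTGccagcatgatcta
TAS3 5′D7(+): tCTTGACCttgtaagacccca
TAS3 5′D8(+): tCTTGACCttgtaaggccttt
With at most 4 mismatches, G:U pairs counted among them, 6 of the 10 ARFs had a site in the coding sequence. These were ARF2, ARF3, ARF4, ARF6, ARF8 and ARF16. ARF3 and ARF4 had 2 tasiR-ARF sites each. Over 27444 nuclear reference transcripts, 1 per gene and searched along their whole length, miR160 matched 3 genes at this limit, and all 3 were ARFs (ARF10, ARF16 and ARF17). The other searches matched more genes that are not ARFs. miR167a matched 7 genes, 2 of them ARFs, 5′D7(+) matched 11 genes, 3 of them ARFs, and 5′D8(+) matched 17 genes, 3 of them ARFs. The sites are printed in coding sense, with bases that form neither an A:U nor a G:C pair in capitals. Bases in G:U pairs, which can still pair weakly, are thus in capitals too. Sites are given for ARF16 at chr4:14704141-14704161 (minus strand) to miR160a, and for ARF6 at chr1:10686478-10686498 (minus strand) and ARF8 at chr5:14633841-14633861 (plus strand) to miR167a. Sites to 5′D7(+) are given for ARF2 at chr5:24913260-24913280 (plus strand), ARF3 at chr2:14325943-14325963 (first site) and chr2:14325823-14325843 (second site, both minus strand) and ARF4 at chr5:24309719-24309739 (first site) and chr5:24309509-24309529 (second site, both minus strand). First and second follow the mRNA.
ARF16, miR160a site: GggTTtacagggagccaggca
ARF6, miR167a site: GagatcaGgctggcagcttGT
ARF8, miR167a site: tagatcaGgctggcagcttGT
ARF2, tasiR-ARF site: AAgggtcttGcaaggtcaaga
ARF3, first tasiR-ARF site: GAgggtcttGcaaggtcaaga
ARF3, second tasiR-ARF site: tAAggtcttGcaaggtcaaga
ARF4, first tasiR-ARF site: tAAggtcttGcaaggtcaaga
ARF4, second tasiR-ARF site: AAgggtcttGcaaggtcaaga
The tasiR-ARF sites of ARF2, ARF3 and ARF4 were identical from the fourth base on, and those of ARF6 and ARF8 from the second.

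ARFs with a site had a median ratio of -1.02 (n = 6) and those without, ARF1, ARF5, ARF7 and ARF19, one of -0.71 (n = 4). The groups overlapped, because ARF16, with a miR160 site, had the highest ratio of all and ARF4, with 2 tasiR-ARF sites, the lowest. The 2 miR167 targets, ARF6 and ARF8, were both under -1, where 10.1% of nuclear genes lie. They also had 7 and 10 upstream ATGs. Among other genes in the ARF range of length and RNA level, 21.7% of those with 5 or more lay under -1. Among the tasiR-ARF targets, ARF4 lay apart from ARF3 and ARF2. A site says nothing of how much of the mRNA was cut in these seedlings, which was not measured here.

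Of the other 13 ARF genes, 5 had a ratio. ARF17 had one of -0.93, ARF11 of -0.71, ARF10 of -0.68, ARF18 of -0.47 and ARF9 of -0.20. All 5 lay under the nuclear median, with a median of -0.68. ARF10 and ARF17, which share the miR160 site with ARF16, lay under it. The remaining 8, ARF12 to ARF15 and ARF20 to ARF23, had at most 6 counts in either assay, and most of them belong to a cluster of genes active in seeds.

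The partners of ARFs did not share one level. The 4 TIR1/AFB receptors listed here, TIR1, AFB1, AFB2 and AFB3, had a median ratio of -0.81, with AFB2 at -1.03, TIR1 at -0.87 and AFB1 at 0.12. The 5 TOPLESS co-repressors had a median of -0.24, from TPR4 at -0.47 over TPL, with the highest RNA-seq TPM of them, at -0.36 to TPR3 at -0.07. Of the 29 Aux/IAA genes 28 had a ratio, with a median of 0.21, from IAA8 at -1.26 to IAA4 at 1.10, and IAA9, with the highest RNA-seq TPM among them, lay at -0.21. Genes known to be switched on by ARFs had a median of 0.41, among them the Aux/IAA gene IAA19 at 0.99, HAT2 at 0.12 and ATHB8, a vascular transcription factor downstream of ARF5, at -0.18. The genes that make tasiRNAs had a median of 0.10, from RDR6, which copies the TAS3 RNA into double strands, at -1.53 to SGS3, its partner, at 0.73. Aux/IAA coding sequences are much shorter than those of ARFs, and long genes had low ratios here.

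**Figure D4:**
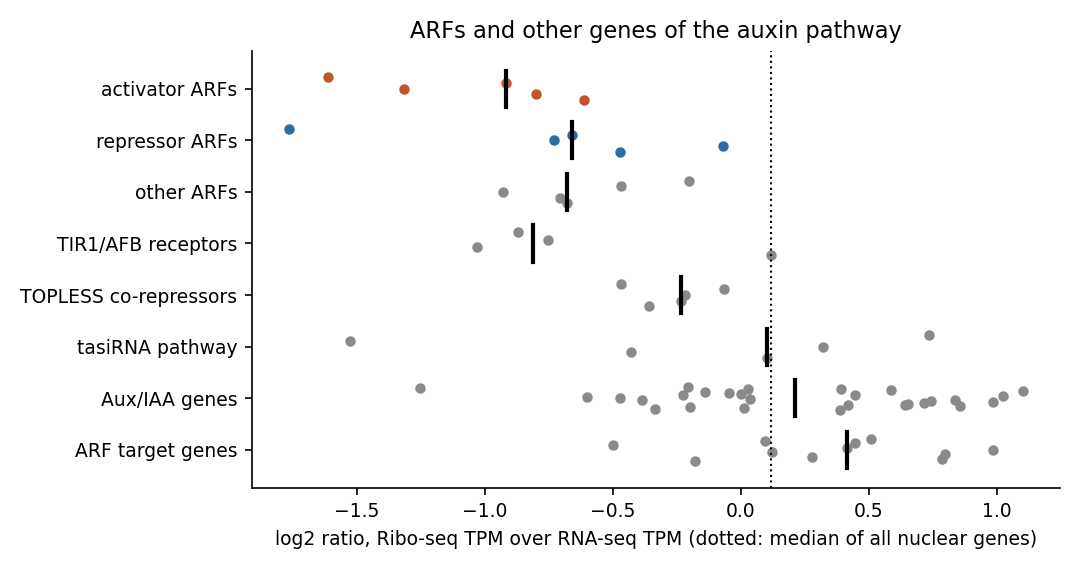
Log2 ratio of Ribo-seq over RNA-seq for the ARFs and other genes of the auxin pathway, 1 point per gene, with the median of each list as a black bar and the median of all nuclear genes dotted. Activator ARFs, repressor ARFs, other ARFs and TIR1/AFB receptors have medians between -0.92 and -0.66, and Aux/IAA genes and ARF target genes medians of 0.21 and 0.41.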

How the data were processed

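Ribo-seq and RNA-seq libraries (6 each) were pooled by the authors into 1 table per assay. Per the labels, Bowtie2 2.3.4.1, STAR and RSEM 1.3.1 were used, and no source used here gives their roles, the genome build or the gene annotation. The deposited expected counts, without normalization, were estimated by RSEM, beside TPM, which RSEM computed over effective coding lengths. The deposited FPKM were not used. Of 27444 matched genes, 27442 had a length within the range of TAIR10.1 coding lengths.

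The log2 ratio of TPM took a pseudocount of 0.1 for genes over 0.1 RNA-seq TPM, so it slightly understates differences of low genes. Intervals combine exact Poisson limits of both counts and treat reads as independent molecules, so they cover counting error only. Upstream ATGs, glutamine codons and small-RNA sites (up to 4 mismatches, G:U pairs counted as mismatches, no gaps) came from RefSeq TAIR10.1 transcripts. No test was made, since each assay had 1 pooled value. The ratio and site search were tested on simulated data. Alternatives were a pseudocount of 1, CPM, whole lengths, nuclear totals and other filters.

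The members and gene lists were chosen with earlier results of these data known. The text names all 10 members, other ARFs with at least 10 footprints and, of each other list, the genes with the highest RNA-seq TPM, the highest and the lowest ratio among those with at least 100 counts in both assays. Python 3.11.15, numpy 2.4.6, pandas 2.3.3, scipy 1.17.1 and matplotlib 3.10.9 were used.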

Additional observations from a re-analysis of the deposited data

How the results depend on the processing

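All 10 ARFs lay under the nuclear median with a pseudocount of 1, in CPM, with whole in place of effective lengths and with nuclear genes alone in the total. The median of the 10 moved to -0.87 in CPM, -1.15 with whole lengths and -1.21 with nuclear totals. The last shift came from the total itself, which moved every gene, and the nuclear median moved from 0.12 to -0.056 with whole lengths and to -0.32 with nuclear totals. Against the nuclear median, the ARF median was -0.88, -0.89 with nuclear totals, -1.08 in CPM and -1.09 with whole lengths. For CPM and whole lengths the cause was not tested.

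ARFs under -1 numbered 3, against 10.1% of nuclear genes, or 4 in CPM, against 8.74%. In settings added after seeing the data, 7 lay there with whole lengths, against 14.2%, and 8 with nuclear totals, against 19.8%. The difference between activators and repressors lay between -0.33 and -0.25 under the settings named above, and was -0.19 among members with an upstream ATG alone, an alternative added after seeing the data. Counts of upstream ATGs and small-RNA sites stayed within 1.5 times. With the transcript of the shortest leader, also added afterwards, the difference between ARFs with and without an upstream ATG was -0.33, since ARF8 then had none, although by gene length little of the ARF8 RNA was that form.

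No paired analysis was possible because the tables hold 1 pooled value per assay with no replicate columns. Leaving out a replicate was likewise impossible. With 844 to 10702 RNA-seq counts per ARF, counting intervals were narrowest for ARF2 (-0.77 to -0.69) and widest for ARF16 (-0.21 to 0.07).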
